A study of Homo sapiens with 4 samples.

Results

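The 10 genes described here encode 4 cytokines (IL6, LIF, IL1A and IL1B), 4 chemokines (CXCL8, CXCL1, CCL2 and CCL20) and 2 inhibitors of NF-κB signalling (TNFAIP3 and NFKBIA). They were chosen by name as tumour-cell cytokines and NF-κB targets, and are 10 of the 58884 genes in the deposited expression table. RNA-seq was made of 2 established human lines of papillary thyroid carcinoma, B-CPAP and TPC-1, each kept in T25 flasks at 40 °C or 37 °C. Each of the 4 groups, B-CPAP at 40 °C, B-CPAP at 37 °C, TPC-1 at 40 °C and TPC-1 at 37 °C, holds 1 library. The labels give no other agent or genetic change, and the series title names transient thermal stress as the subject. The length of the exposure is given in 3 ways, as 15 min, 20 min and 24 h, so the values below belong to an exposure of unsettled length. B-CPAP and TPC-1 are each a single cell line, so a difference between lines is one between 2 lines and not between 2 classes of tumour.

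IL-1 and TNF receptors act through kinase cascades that free NF-κB, a family of dimeric transcription factors, from the inhibitor IκBα, the product of NFKBIA. Free NF-κB enters the nucleus and switches on cytokine and chemokine genes. It also switches on NFKBIA and TNFAIP3, whose product A20 edits ubiquitin chains on the signalling complexes, and both close the loop. Many of the messenger RNAs made in this way carry AU-rich elements, copies of ATTTA in the 3′ UTR that decay and stability factors bind, and are short-lived. Thyroid carcinoma cells are known to secrete chemokines such as IL-8, the product of CXCL8, and CCL2, which attract neutrophils and monocytes.

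Values are in TPM, a level per unit of gene length set relative to all RNA of the library, so that genes can be set side by side. The estimated depth was 20706148 to 24468324 reads a library. A gene with a mean of at least 1 TPM over the 4 libraries was tested, which 14912 genes and 8 of the 10 genes here were; IL1A and IL1B lay under that mean. Of 13 thyroid and epithelial markers, 6 had a mean of at least 1 TPM and 2 were listed at 0 in every library. Among the 6, PAX8 stood at 98.9 to 284.4 TPM and KRT8 at 138.9 to 569.8 TPM over both lines. The differentiation gene SLC5A5 was listed at 0 in every library, TG reached at most 0.75 TPM and CDH1 at most 0.04 TPM. Of 12 leukocyte markers, 6 were listed at 0 in every library, among them PTPRC, the pan-leukocyte CD45 gene. Their summed level was 2.22 and 2.38 TPM in B-CPAP and 4.34 and 3.06 TPM in TPC-1. Fibroblast and endothelial markers summed to 48.3 and 39.3 TPM in B-CPAP and 10.5 and 10.7 TPM in TPC-1, with the collagen genes COL1A1, COL1A2 and COL3A1 and LUM higher in B-CPAP, PECAM1 and CDH5 at or under 0.68 TPM and DCN at or under 0.16 TPM. The part of other cell types in the values below was not tested. In bulk RNA, fewer cells that express a gene and less RNA of it per cell cannot be told apart.

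Most of these genes share a short promoter element. RefSeq promoter windows on GRCh38.p14, which run from 250 bases before to 50 bases after a start site, were held for 8 of the 10 genes, all but CCL2 and LIF. The 9 letters GGNNTTTCC, a form of the κB element that NF-κB dimers bind, were found on either strand in 6 of those 8 windows, against 6.26% of all 35116 windows. IL6, CXCL8, CXCL1, CCL20, TNFAIP3 and NFKBIA hold it, and IL1A and IL1B do not. The genes were chosen by name as cytokines and NF-κB targets, so their share is not independent of that choice. The following stretches of 80 bases before the start site are shown because they hold the match, which stands in capitals, and each is written 5′ to 3′ on the strand of its gene.
IL6: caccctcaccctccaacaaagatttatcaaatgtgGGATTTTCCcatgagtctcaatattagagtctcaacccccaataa
CXCL8: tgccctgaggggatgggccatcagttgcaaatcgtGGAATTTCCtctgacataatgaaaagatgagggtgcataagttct
CXCL1: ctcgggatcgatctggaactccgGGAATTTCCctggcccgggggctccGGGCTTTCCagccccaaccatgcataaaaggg
CCL20: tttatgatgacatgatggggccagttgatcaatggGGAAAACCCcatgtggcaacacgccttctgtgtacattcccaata
TNFAIP3: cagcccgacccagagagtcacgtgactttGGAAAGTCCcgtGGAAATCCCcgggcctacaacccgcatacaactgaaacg
NFKBIA: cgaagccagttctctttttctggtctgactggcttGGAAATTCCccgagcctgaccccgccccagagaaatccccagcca
In CCL20, TNFAIP3 and NFKBIA the capitals read the element on the opposite strand. CXCL1 and TNFAIP3 each hold 2 copies in the stretch shown, and NFKBIA has a second copy at positions -242 to -234, counted from its start site. The stretches lie at chr7:22727093-22727172 (+), chr4:73740443-73740522 (+), chr4:73869292-73869371 (+), chr2:227813728-227813807 (+), chr6:137867163-137867242 (+) and chr14:35404786-35404865 (-).

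The matches shown sit close to the start site, between positions -91 and -45. The longer 10-letter κB consensus, which overlaps the 9 letters in each match, was found in 5 of the 8 windows, all of the above but CXCL8, against 5.91% of all windows. An AP-1 element, TGANTCA, stood in 2 of the 8 (CXCL8 and IL1A) against 7.71% of windows. The C/EBP letters TTNNGNAA, a common match, stood in 4 of the 8 against 36.8%, and TATAAA in 4 of the 8 against 11.5%. A match is a run of letters and not a measured site.

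The 3′ UTRs of the same genes hold many AU-rich elements. In GENCODE 29 transcripts, the number of ATTTA copies per kb of 3′ UTR lay between 2.19 in LIF and 13.99 in IL6, and all 10 genes lay above the median of 1.43 over 18813 protein-coding genes. The 9 letters TTATTTATT, a stricter form that the decay factor tristetraprolin recognises, were found in 5 of the 10 (IL1B, LIF, CXCL8, CXCL1 and TNFAIP3), against 7.56% of those genes. The richest run of 30 bases is shown for IL6, IL1B, CXCL8 and CXCL1, the 4 genes with most copies per kb, and for CCL2, whose 3′ UTR has 1 copy, with ATTTA in capitals.
IL6: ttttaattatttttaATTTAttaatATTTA
IL1B: tgagcaaccgcttccctATTTATTTATTTA
CXCL8: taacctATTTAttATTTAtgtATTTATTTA
CXCL1: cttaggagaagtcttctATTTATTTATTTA
CCL2: tatgccttaagtaatgttaattcttATTTA
Copies overlap in IL1B, CXCL8 and CXCL1, which share the run ATTTATTTA. LIF, TNFAIP3 and CCL2 have the fewest copies per kb, at 2.19, 2.51 and 2.66.

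The 10 genes made up different profiles in the 2 lines, and each pair of values below gives a line's 40 °C library and then its 37 °C library. In B-CPAP the order of levels was led by LIF (60.9 and 67.9 TPM), then NFKBIA (41.5 and 42.0 TPM). CXCL1 (15.7 and 9.82 TPM) and CXCL8 (11.7 and 12.7 TPM) followed and overlapped, as did TNFAIP3 (8.85 and 6.69 TPM) and IL6 (6.49 and 8.49 TPM). CCL20 came next at 2.06 and 2.61 TPM, IL1A and IL1B stayed under 1 TPM and overlapped, and CCL2 was at 0 and 0.20 TPM, where it overlapped IL1A. In TPC-1, NFKBIA (69.3 and 66.6 TPM) and CCL2 (64.7 and 67.8 TPM) led and overlapped, followed by CXCL1 (30.2 and 26.0 TPM) and LIF (29.6 and 28.1 TPM), which also overlapped. CXCL8 (7.81 and 3.62 TPM) overlapped both TNFAIP3 (4.79 and 5.43 TPM) and IL6 (3.93 and 4.48 TPM), which did not overlap each other. IL1B stood at 1.29 and 1.34 TPM, IL1A at 0.81 and 0.23 TPM, and CCL20 was listed at 0. Summed over the 10 genes, B-CPAP had 148.7 and 151.1 TPM and TPC-1 212.4 and 203.6 TPM.

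**Figure D1:**
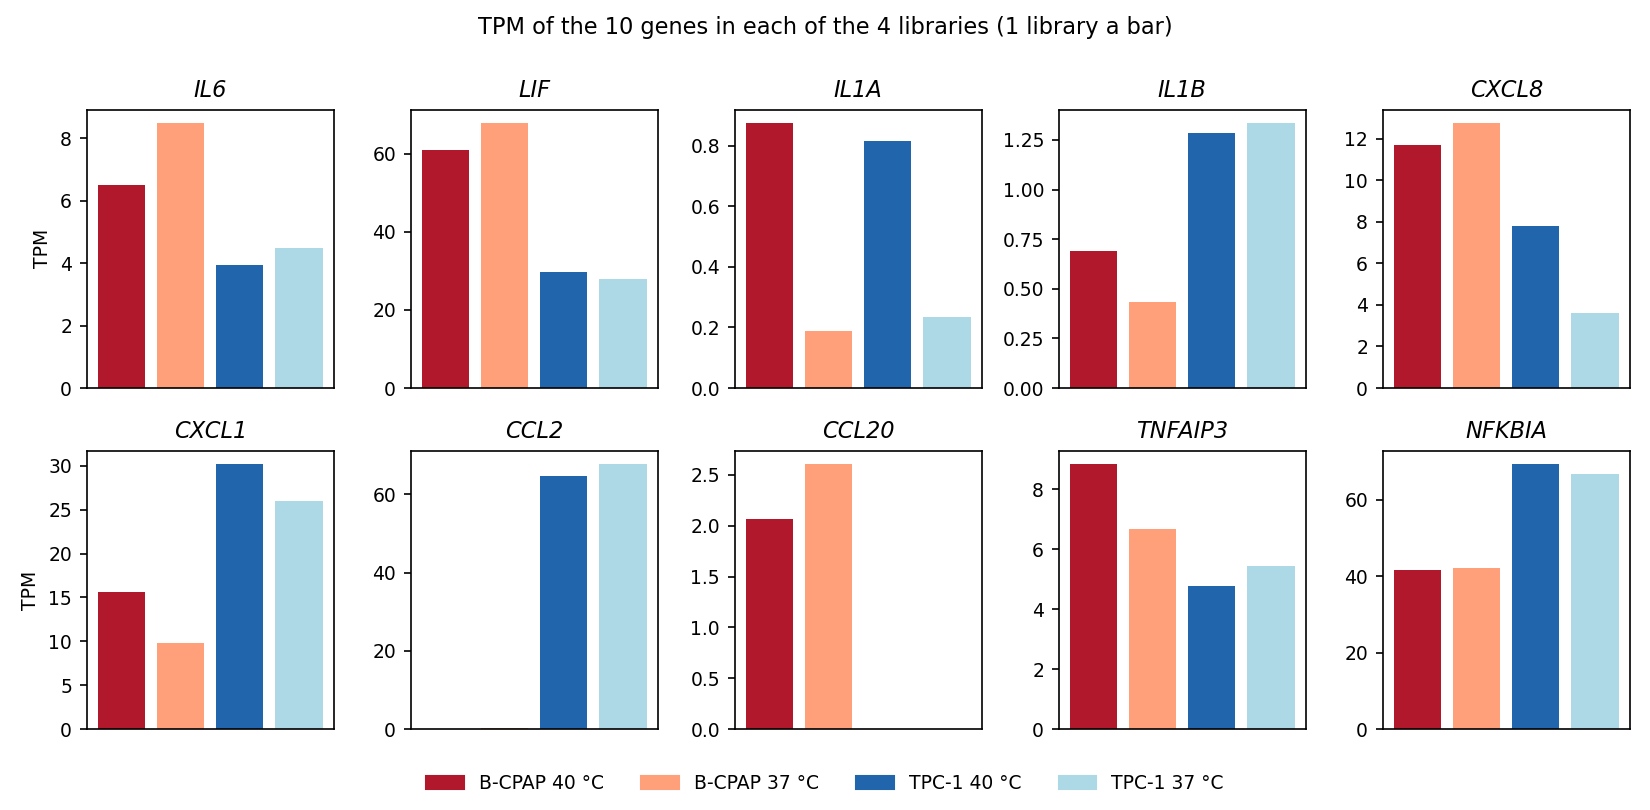
TPM (vertical axis, linear, a scale of its own in each panel) of each of the 10 genes, with 1 bar for each library in the order B-CPAP 40 °C, B-CPAP 37 °C, TPC-1 40 °C and TPC-1 37 °C, and no error bars since each group has 1 library. CCL2 reached 64.7 and 67.8 TPM in TPC-1 and at most 0.20 TPM in B-CPAP, CCL20 was at 0 in both TPC-1 libraries, and LIF stood above 60 TPM in B-CPAP and under 30 TPM in TPC-1.

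The first comparison set B-CPAP against TPC-1 over both temperatures. Of the 8 genes tested, 4 were higher in B-CPAP (LIF, CXCL8, IL6 and CCL20), 3 were lower (CCL2, CXCL1 and NFKBIA) and TNFAIP3 did not pass the test. The test was limma on log2(TPM + 1) with temperature as a block and a Benjamini-Hochberg adjusted p of 0.05 over all 14912 genes. It called 62.7% of all genes, 29.9% as higher in B-CPAP and 32.8% as lower, so 7 calls among 8 genes stand beside a high background. The lines' libraries did not overlap for any of the 8 tested genes, which also held for 75.7% of all tested genes. Counting intervals of the ratio between lines excluded 1 for all 8 at 40 °C and at 37 °C, against 77.1% and 77.3% of all tested genes. The fit has 1 residual degree of freedom a gene, and its spread is how far the temperature difference differs between lines, since no library has a replicate culture.

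CCL2, the chemokine that draws monocytes, showed the widest gap. It is ENSG00000108691 on chromosome 17 at 34255218 to 34257203 (GRCh38, + strand). B-CPAP had 0 and 0.20 TPM at 40 °C and 37 °C, from 0 and 3 estimated reads, against 64.7 and 67.8 TPM in TPC-1, from 742 and 814 estimated reads. With 3 reads as the floor for a library without reads, B-CPAP was at least 299.5-fold lower at 40 °C. At 37 °C the TPM ratio of B-CPAP to TPC-1 was 0.00299, with an exact 95% counting interval of 0.000615 to 0.00876. The fitted log2 difference was -5.94 (SE 0.15, adjusted p 3e-05), a size that depends on the added 1 TPM. CCL2 reached its mean of 33.2 TPM through TPC-1 alone, so the direction of its call was set by the filter. Its 5 nearest neighbours on chromosome 17 among chemokine genes, CCL7, CCL11, CCL8, CCL13 and CCL1, were listed at 0 in all 4 libraries; they were picked for their position.

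CCL20, which attracts CCR6-bearing lymphocytes and dendritic cells, had the opposite pattern at low levels. Its gene, ENSG00000115009, lies on chromosome 2 at 227805739 to 227817564 (+ strand). Estimated reads were 23 and 31 in B-CPAP, for 2.06 and 2.61 TPM at 40 °C and 37 °C, and 0 in both TPC-1 libraries. B-CPAP was at least 6.33-fold higher at 40 °C and at least 8.37-fold higher at 37 °C. The fitted log2 difference was 1.73 (SE 0.27, adjusted p 0.00374). CCL20 reached its mean of 1.17 TPM through B-CPAP alone, so the direction of its call was set by the filter. In the 4 fits that left out 1 library the log2 difference ran from -6.07 to -5.80 for CCL2 and from 1.61 to 1.85 for CCL20. The filter set the direction of both genes, so these ranges bear on size alone.

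LIF, a cytokine of the IL-6 family that signals through LIFR and gp130, was the most abundant of the 10 genes in B-CPAP. It is ENSG00000128342 on chromosome 22 at 30240447 to 30246851 (- strand). It had 60.9 and 67.9 TPM in B-CPAP at 40 °C and 37 °C, above 84.1% and 85.7% of tested genes, and 29.6 and 28.1 TPM in TPC-1, above 70.6% and 69.7%. The ratio of B-CPAP to TPC-1 was 2.06 at 40 °C (interval 1.88 to 2.25) and 2.42 at 37 °C (2.22 to 2.64), and the log2 difference was 1.13 (SE 0.11, adjusted p 0.000805). The adjusted p was 0.0527 without the 40 °C library of TPC-1 and 0.0595 without its 37 °C library.

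IL6, the cytokine that drives STAT3 and the hepatic acute phase response, was higher in B-CPAP by a smaller margin. It is ENSG00000136244 on chromosome 7 at 22725884 to 22732002 (+ strand). Its 6.49 and 8.49 TPM in B-CPAP stood against 3.93 and 4.48 TPM in TPC-1, from 47 to 131 estimated reads a library. The ratio was 1.65 at 40 °C (interval 1.15 to 2.40) and 1.90 at 37 °C (1.38 to 2.64), and the log2 difference was 0.70 (SE 0.16, adjusted p 0.0155). The call was lost in each of the 4 fits without 1 library, at an adjusted p of 0.0592 to 0.287.

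CXCL8, the neutrophil chemokine IL-8, is ENSG00000169429 on chromosome 4 at 73740506 to 73743716 (+ strand). It stood at 11.7 and 12.7 TPM in B-CPAP and at 7.81 and 3.62 TPM in TPC-1, so B-CPAP was higher at both temperatures but by different margins. The ratio was 1.50 at 40 °C (interval 1.17 to 1.92) and 3.52 at 37 °C (2.56 to 4.86). The log2 difference was 1.05 (SE 0.27, adjusted p 0.0224) and passed the threshold in none of the 4 fits without 1 library (adjusted p 0.0619 to 0.291). It was 0.58 without the 37 °C library of TPC-1 and 1.52 without the 40 °C library of that line.

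CXCL1, another ligand of the neutrophil receptor CXCR2, went the other way from CXCL8. It is ENSG00000163739 on chromosome 4 at 73869393 to 73871242 (+ strand). B-CPAP had 15.7 and 9.82 TPM, and TPC-1 had 30.2 and 26.0 TPM. The ratio was 0.519 at 40 °C (interval 0.418 to 0.643) and 0.377 at 37 °C (0.293 to 0.484), and the log2 difference was -1.11 (SE 0.15, adjusted p 0.00233). The call held without the 40 °C library of B-CPAP (adjusted p 0.0347). It was lost without the 37 °C library of B-CPAP (0.0684), the 40 °C library of TPC-1 (0.177) or the 37 °C library of TPC-1 (0.131).

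The interleukin-1 genes lay beside each other on chromosome 2 and were near the limit of detection. IL1B, which encodes the secreted IL-1β (ENSG00000125538, 112829751 to 112836903, - strand), had 0.69 and 0.43 TPM in B-CPAP, from 15 and 10 estimated reads, and 1.29 and 1.34 TPM in TPC-1, from 23 and 25. Its ratio of B-CPAP to TPC-1 was 0.539 at 40 °C (interval 0.261 to 1.08) and 0.324 at 37 °C (0.139 to 0.699). IL1A, which encodes the mostly cell-bound IL-1α (ENSG00000115008, 112773915 to 112784590, - strand), had 0.87 and 0.19 TPM in B-CPAP and 0.81 and 0.23 TPM in TPC-1. A difference in IL1A between lines was not detectable at this depth, with intervals of 0.435 to 2.73 at 40 °C and 0.109 to 6.05 at 37 °C.

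Of the inhibitory loop, NFKBIA was lower in B-CPAP and TNFAIP3 did not pass the test. NFKBIA (ENSG00000100906, chromosome 14, 35401511 to 35404749, - strand) had 41.5 and 42.0 TPM in B-CPAP and 69.3 and 66.6 TPM in TPC-1. Its log2 difference was -0.69 (SE 0.09, adjusted p 0.0024). The adjusted p was 0.119 without the 40 °C library of TPC-1 and 0.106 without its 37 °C library. TNFAIP3 (ENSG00000118503, chromosome 6, 137867188 to 137883312, + strand) had 8.85 and 6.69 TPM in B-CPAP and 4.79 and 5.43 TPM in TPC-1. Its log2 difference of 0.51 (SE 0.19) had an adjusted p of 0.0654 and passed the threshold in 4 of 10 other settings, at 0.0097 to 0.156 over all 10. The ratio of B-CPAP to TPC-1 for TNFAIP3 was 1.85 at 40 °C (interval 1.51 to 2.27) and 1.23 at 37 °C (1.01 to 1.51).

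**Figure D2:**
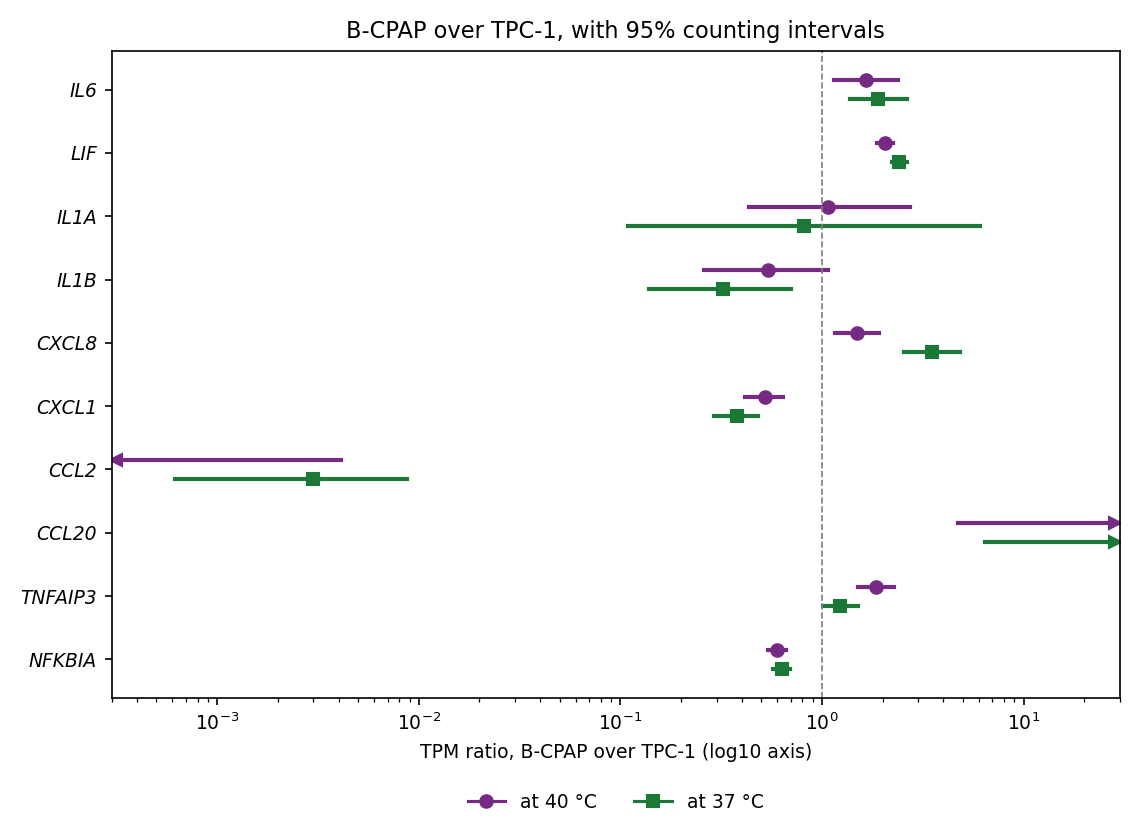
TPM ratio of B-CPAP to TPC-1 (horizontal axis, log10) for each gene, with circles for 40 °C and squares for 37 °C, 1 library a group, and bars for exact 95% intervals that cover counting error only. Arrows mark a library without reads, where only 1 end of the interval exists; IL6, LIF and CXCL8 lie to the right of 1, CXCL1 and NFKBIA to the left, and CCL2 and CCL20 lie at the far ends.

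CXCL8 and CXCL1 belong to a cluster of CXC chemokine genes on chromosome 4, and its 9 protein-coding genes were not alike between lines. CXCL6, which lies between them, and CXCL5 had 8.27 and 4.27 TPM, and 15.2 and 11.4 TPM, in B-CPAP, and both were listed at 0 in TPC-1. Both encode neutrophil chemokines, and both passed the test (adjusted p 0.000998 and 0.00017), which they entered through B-CPAP alone. CXCL2, the closest relative of CXCL1, followed CXCL1, with 2.25 and 1.53 TPM in B-CPAP and 5.82 and 3.67 TPM in TPC-1 (log2 difference -0.98, SE 0.19, adjusted p 0.00886). CXCL1, CXCL2 and CXCL3 are closely related genes, and reads that match more than 1 of them could have been lost or split by the counting. CXCL3 stayed at 0.22 to 0.60 TPM, PPBP was listed at 0, and PF4V1 and PF4 were detected in B-CPAP at 2.12 and 3.61 TPM and at 0.71 and 0.89 TPM and were at 0 in TPC-1. PF4V1 rests on 8 and 14 estimated reads and entered the test through B-CPAP alone, and PF4 rests on 3 and 4. For PF4 and CXCL3 the counting intervals between lines included 1 at both temperatures. All 7 other genes were picked for their position, and CXCL2, CXCL3, CXCL6, PF4V1, PF4 and PPBP were named after their values had been seen.

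**Figure D3:**
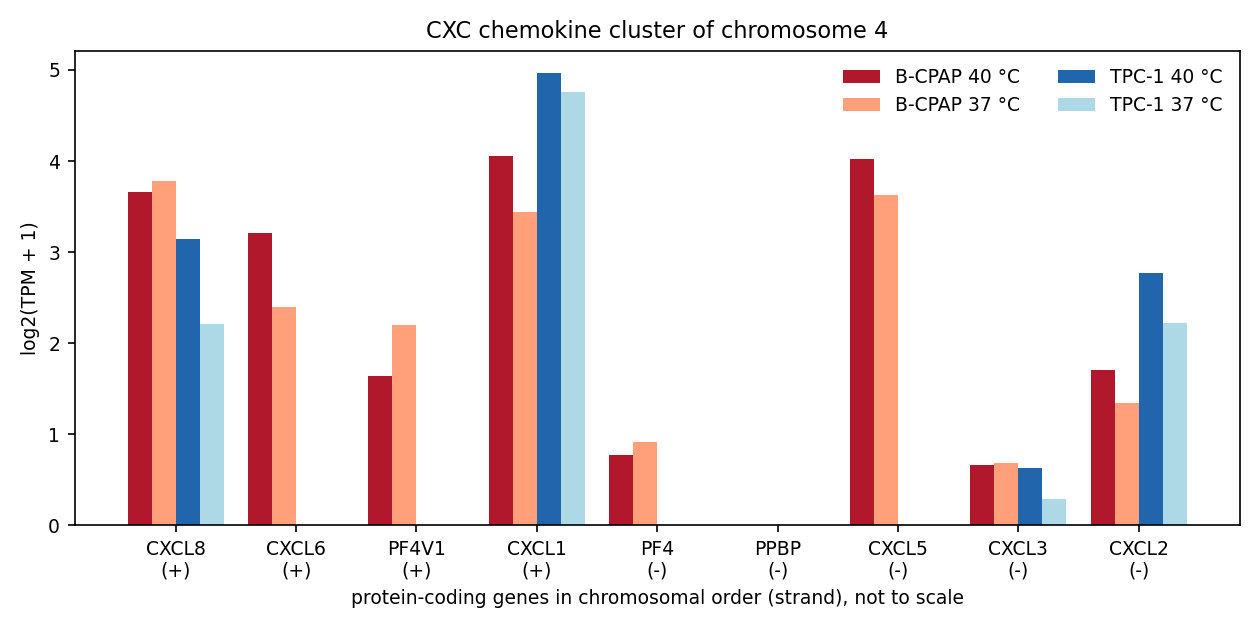
Levels as log2(TPM + 1) (vertical axis) of the 9 protein-coding genes of the CXC cluster in their order along chromosome 4, not to scale, with the strand under each name and 1 bar for each library. CXCL8, CXCL6, PF4V1 and CXCL5 were higher in both B-CPAP libraries, as were PF4 and CXCL3, whose counting intervals between lines included 1. CXCL1 and CXCL2 were higher in both TPC-1 libraries, and PPBP was at 0.

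The second comparison set 40 °C against 37 °C. Over both lines none of the 8 tested genes passed the test, and none of the 14912 tested genes did (limma with the line as a block, 0% called). Without adjustment 2905 genes had a p under 0.05, and CXCL1 was the 1 gene of the 8 among them, at a log2 difference of 0.41 (SE 0.15, p 0.038, adjusted p 0.243). Fitted differences of the others lay between -0.25 for IL6 (SE 0.16, adjusted p 0.419) and 0.41 for CXCL8 (SE 0.27, adjusted p 0.423). The count of 0 over all genes depended on which genes entered, with 867 called at a mean of at least 5 TPM and 1350 among protein-coding genes only. Those of the 8 genes that entered these other fits were not called. Within a line each temperature has 1 library, so no test exists there, and the intervals below cover counting error in 2 libraries and no spread between cultures.

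CXCL8 and TNFAIP3 had opposite signs in the 2 lines, each with an interval that included 1 in 1 line. In B-CPAP the 40 °C library had 11.7 TPM of CXCL8 and the 37 °C library 12.7 TPM, a ratio of 0.916 (interval 0.751 to 1.12). In TPC-1 the levels were 7.81 TPM and 3.62 TPM, a ratio of 2.16 (interval 1.52 to 3.09) from about 103 and 50 estimated reads, and this was the only one of the 8 tested genes in TPC-1 whose interval excluded 1. TNFAIP3 levels were 8.85 TPM and 6.69 TPM in the same order in B-CPAP, a ratio of 1.32 (interval 1.12 to 1.57), and at 4.79 and 5.43 TPM in TPC-1, a ratio of 0.882 (0.70 to 1.11). On the log2(TPM + 1) scale the 40 °C minus 37 °C difference of CXCL8 was -0.12 in B-CPAP and 0.93 in TPC-1, and that of TNFAIP3 was 0.36 and -0.15. Signs were opposite between lines for 4 of the 8 genes, CXCL8, TNFAIP3, LIF and NFKBIA, as for 26.5% of all tested genes. For none of these 4 did the intervals of both lines exclude 1.

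Of the 4 chemokines CXCL1 was the 1 that stood higher at 40 °C in both lines. B-CPAP had 15.7 TPM in its 40 °C library and 9.82 TPM in its 37 °C library, a ratio of 1.59 (interval 1.22 to 2.09), and TPC-1 had 30.2 and 26.0 TPM, a ratio of 1.16 whose interval of 0.955 to 1.41 included 1. CXCL2 had a ratio of 1.47 in B-CPAP, whose interval of 0.776 to 2.99 included 1, and of 1.59 in TPC-1, whose interval of 1.002 to 2.54 just excluded it. LIF stood slightly lower at 40 °C in B-CPAP, at 60.9 against 67.9 TPM (ratio 0.897, interval 0.840 to 0.957), and not beyond counting error in TPC-1 (ratio 1.06, interval 0.948 to 1.18).

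IL1A had the highest ratios of the 10 genes, on very few reads. Estimated reads were 13 at 40 °C and 3 at 37 °C in B-CPAP, and 10 at 40 °C and 3 at 37 °C in TPC-1. The TPM ratio was 4.62 in B-CPAP (interval 1.27 to 25.3) and 3.49 in TPC-1 (0.898 to 19.7), so the interval in TPC-1 included 1. IL1B had ratios of 1.60 (0.672 to 3.98) in B-CPAP and 0.963 (0.522 to 1.77) in TPC-1.

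For the remaining genes the counting intervals included 1. IL6 had ratios of 0.765 (0.581 to 1.01) in B-CPAP and 0.879 (0.583 to 1.32) in TPC-1, and NFKBIA had ratios of 0.988 (0.889 to 1.10) and 1.04 (0.950 to 1.14). CCL2 in TPC-1 had a ratio of 0.954 (0.863 to 1.06) and CCL20 in B-CPAP one of 0.791 (0.441 to 1.40). The intervals excluded 1 for 3 of the 8 tested genes in B-CPAP, against 58.2% of all tested genes, and for 1 of 8 in TPC-1, against 37.6%. None of the 8 was 2-fold apart on the log2(TPM + 1) scale in either line, where 3.9% of tested genes were in B-CPAP and 3.48% in TPC-1.

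The difference between temperatures moved with GC content across genes, and the 10 genes span 33.4% GC in CXCL8 to 56.9% in LIF. Among 255 protein-coding genes within 2 percentage points of the GC content of CXCL8, the median log2 difference was 0.62 in B-CPAP and 0.29 in TPC-1, beside -0.12 and 0.93 for CXCL8 itself. With an adjustment for GC content CXCL8 came to -0.64 in B-CPAP and 0.69 in TPC-1, and to 0.03 over both lines in place of 0.41. For IL1A, at 39.1% GC, the genes of like GC had medians of 0.48 and 0.19, beside 0.66 and 0.56 for IL1A. For LIF they had medians of -0.19 and -0.10, beside -0.15 and 0.08 for LIF, and the same adjustment turned its difference in B-CPAP to 0.11. The part of GC content in the difference of any single gene was not tested.

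**Figure D4:**
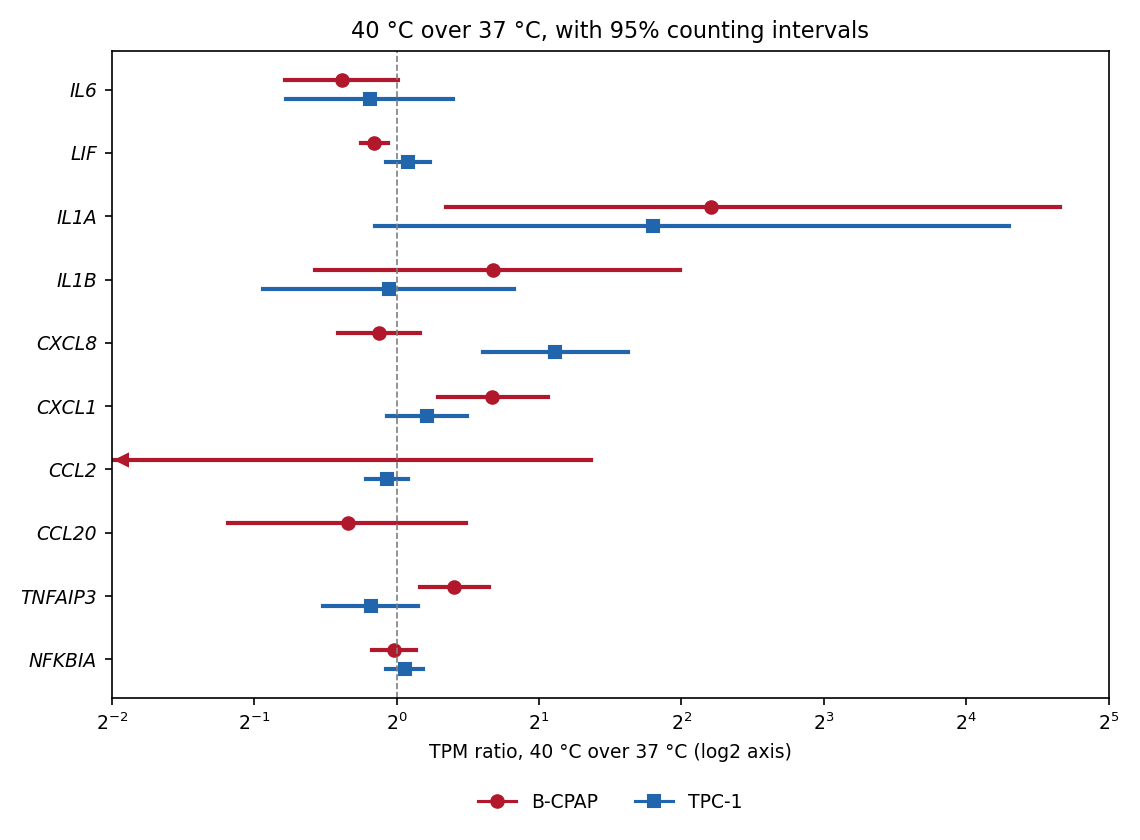
TPM ratio of 40 °C to 37 °C (horizontal axis, log2) for each gene, with circles for B-CPAP and squares for TPC-1, 1 library a group, and bars for exact 95% intervals that cover counting error only. CXCL8 in TPC-1 and CXCL1, TNFAIP3 and IL1A in B-CPAP lie to the right of 1 with their intervals, LIF in B-CPAP lies to the left, the arrow marks CCL2 in B-CPAP with 0 reads at 40 °C, and CCL20 has no reads in TPC-1.

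The remaining genes of the pathway were taken from lists by role, and the line comparison is given for each; none of their genes passed the test between temperatures. Over all tested genes the median log2 difference between B-CPAP and TPC-1 was -0.05. Of all tested genes 29.9% were called higher in B-CPAP and 32.8% lower, and the counts of each list stand beside these shares. Of 8 tested other chemokines, 5 were higher in B-CPAP and 3 lower, with a median of 2.26, or 2.11 with libraries at 0 set to 3 reads. Of the 8, 4 (CXCL5, CXCL6, CXCL12 and CCL28) were at 0 in both TPC-1 libraries. They reached the mean of 1 TPM through B-CPAP alone, so the filter set their direction, and the median depends on them. CXCL12, the CXCR4 ligand that holds stem cells and lymphocytes in tissues, had 25.7 and 21.8 TPM in B-CPAP and was listed at 0 in TPC-1. CCL28, a mucosal chemokine, had 8.82 and 6.99 TPM in B-CPAP and was also at 0 in TPC-1, and CCL26, an eosinophil chemokine, had 9.92 and 9.68 TPM against 2.45 and 2.11 TPM. The transmembrane chemokines CXCL16 and CX3CL1 were lower in B-CPAP, at 0.77 and 1.44 TPM and at 1.49 and 1.78 TPM, against 10.1 and 11.1 TPM and 9.38 and 10.4 TPM in TPC-1. Among 7 other tested cytokines, 2 were higher and 2 lower. IL11, like LIF a ligand of the gp130 family, had 38.6 and 52.5 TPM in B-CPAP and 9.82 and 14.5 TPM in TPC-1, and the macrophage growth factor CSF1 had 34.7 and 40.7 TPM in B-CPAP and 152.2 and 158.2 TPM in TPC-1.

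Receptors for the cytokines named here were mostly lower in B-CPAP, at 5 of 7 tested against 1 higher, with a median of -0.97. Over all tested genes 32.8% were lower and 29.9% higher. OSMR, the oncostatin M receptor subunit, had 54.4 and 42.4 TPM in B-CPAP and 157.8 and 159.7 TPM in TPC-1. The IL-6 receptor chain IL6R had 2.99 and 2.33 TPM against 12.1 and 11.5 TPM, and IL6ST, which encodes the shared chain gp130, 15.7 and 7.67 TPM against 32.1 and 26.5 TPM. The IL-1 receptor gene IL1R1 had 7.53 and 6.36 TPM against 13.7 and 15.5 TPM. IL1RAP did not pass the test, at 4.46 and 2.67 TPM against 5.27 and 5.41 TPM (log2 difference -0.50, SE 0.22, adjusted p 0.0985). The 1 called higher was ACKR3, a scavenging receptor for CXCL12, at 68.6 and 68.3 TPM in B-CPAP and 0.25 and 0 TPM in TPC-1. With 3 and 0 estimated reads in TPC-1, ACKR3 entered the test through B-CPAP alone, so the filter set its direction. The leukocyte chemokine receptors CXCR1, CXCR2, CCR2 and CCR6, through which the 4 chemokines act, were listed at 0 in all libraries.

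The NF-κB subunits of the alternative arm were much lower in B-CPAP. Of 4 subunits tested, 3 were lower, with a median of -1.57, beside 32.8% lower among all tested genes. RELB had 6.92 and 10.1 TPM in B-CPAP and 63.4 and 77.9 TPM in TPC-1 (log2 difference -2.92, SE 0.12, adjusted p 7.48e-05), and its partner NFKB2 had 20.7 and 23.3 TPM against 80.0 and 99.2 TPM. NFKB1 had 17.3 and 16.0 TPM against 38.4 and 38.7 TPM. RELA, the main activating subunit, did not pass the test, at 58.6 and 75.9 TPM in B-CPAP and 64.9 and 82.2 TPM in TPC-1 (log2 difference -0.13, SE 0.09, adjusted p 0.245).

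Other IκB proteins and feedback inhibitors were divided, with 3 of 12 tested higher in B-CPAP and 6 lower. The shares over all tested genes were 29.9% and 32.8%. NFKBIB, which encodes IκBβ, was higher, at 62.4 and 67.2 TPM against 23.4 and 30.5 TPM. BCL3, a nuclear IκB protein, had 8.09 and 11.0 TPM in B-CPAP and 145.1 and 179.6 TPM in TPC-1, TNIP1, an A20-binding protein, 70.6 and 80.4 TPM against 189.1 and 232.7 TPM, and SOCS3, the brake on gp130 signalling, 38.1 and 44.5 TPM against 102.3 and 114.9 TPM. Of 19 tested other NF-κB targets, 15 were lower in B-CPAP and 1, VCAM1, was higher, with a median of -1.59, or -1.34 with libraries at 0 set to 3 reads. Over all tested genes 32.8% were lower and 29.9% higher. Of the 19, 2 had both libraries of a line at 0, VCAM1 among them, so the filter set their direction. TNFAIP2 had 24.1 and 30.0 TPM in B-CPAP and 121.9 and 114.5 TPM in TPC-1, IER3 had 90.1 and 116.8 TPM against 375.8 and 404.6 TPM, and CD40, a TNF receptor family member, had 32.8 and 39.2 TPM against 114.4 and 112.7 TPM. LIF, IL6, CXCL8 and CCL20 were higher in B-CPAP, the line in which most of the other targets tested were lower. CCL2, CXCL1 and NFKBIA were lower in B-CPAP, as most of those targets were. For CCL20 and CCL2 the filter set the direction.

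Of 18 tested signal transducers, 12 were lower in B-CPAP and 1, the adaptor gene MYD88, was higher, with a median of -0.59. Over all tested genes 32.8% were lower and 29.9% higher. IRAK1, a kinase of the IL-1 receptor complex, had 206.7 and 285.8 TPM in B-CPAP and 374.8 and 435.8 TPM in TPC-1, and the TNF receptor gene TNFRSF1A had 121.3 and 143.2 TPM against 335.4 and 393.4 TPM. Of 9 factors that act on AU-rich messenger RNAs, 5 were lower in B-CPAP and 1, KHSRP, was higher. ZFP36L1, a decay factor, had 136.1 and 128.8 TPM against 284.0 and 276.5 TPM, while ELAVL1, the stabilising factor HuR, did not pass the test at 95.8 and 96.3 TPM against 84.2 and 90.1 TPM. Among 9 STAT3 and C/EBP genes, 3 were lower, near the share of 32.8% over all tested genes, and 1 was higher. CEBPD, an acute phase regulator, had 3.48 and 4.80 TPM in B-CPAP and 204.3 and 212.1 TPM in TPC-1, STAT3 had 48.4 and 48.9 TPM against 94.6 and 95.3 TPM, and CEBPB was the higher one, at 121.5 and 164.0 TPM against 90.3 and 106.6 TPM.

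**Figure D5:**
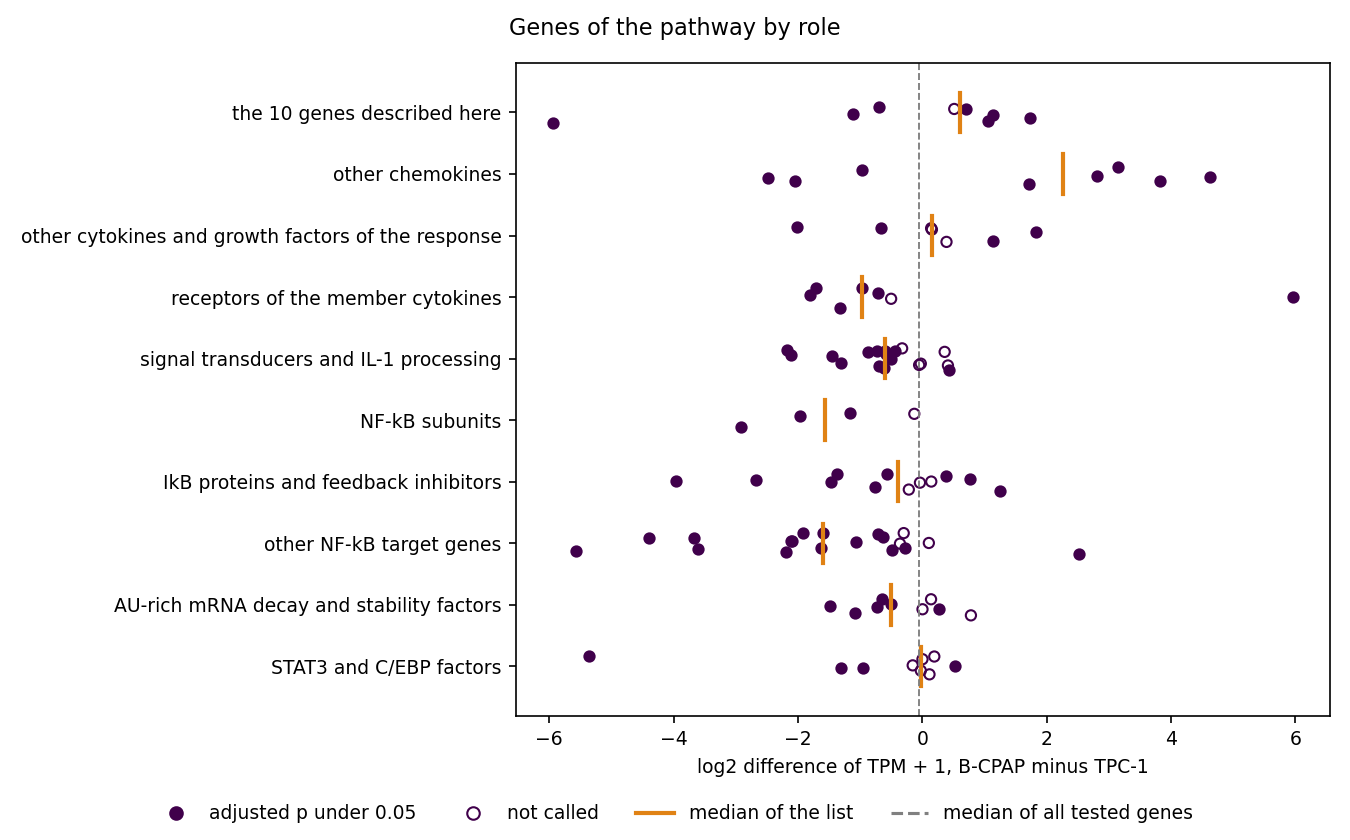
Log2 difference of TPM + 1 between B-CPAP and TPC-1 (horizontal axis; positive is higher in B-CPAP) for each tested gene, by role (rows), with filled points for an adjusted p under 0.05, open points for genes not called, a bar at the median of each list and a dashed line at the median of all tested genes, -0.05. The medians of the NF-κB subunits (-1.57) and other NF-κB targets (-1.59) lie to the left, and that of the other chemokines (2.26) to the right. Of those chemokines, 4 were at 0 in both TPC-1 libraries and entered through B-CPAP alone.

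CCL2 had the widest range of the cytokine and chemokine genes, 6.10 on the log2(TPM + 1) scale over the 4 libraries. Among 9393 protein-coding genes with a mean of at least 5 TPM, the 5 whose centred profile lay nearest to it over the 4 libraries were MACROH2A2, PADI3, GALNT14, EGFL7 and LY6K, at Euclidean distances of 0.17, 0.18, 0.20, 0.21 and 0.21. MACROH2A2, a histone variant gene, had 0 and 0.07 TPM in B-CPAP and 55.6 and 65.0 TPM in TPC-1, and PADI3, a peptidylarginine deiminase gene, had 0.45 and 0.63 TPM and 90.6 and 109.3 TPM. With 4 libraries, any gene that is near 0 in B-CPAP and at a like level in both TPC-1 libraries comes close to this profile.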

How the data were processed

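RNA of B-CPAP and TPC-1 cells at 40 °C and 37 °C was measured by RNA-seq, 1 library a group. The kits, per the labels' protocols, were RNeasy Plus for RNA and TruSeq RNA v2 for libraries. TruSeq RNA v2 does not mark strand, so reads from the overlap of genes on opposite strands cannot be assigned by strand. FastQC, MultiQC, Trimmomatic 0.38, featureCounts 2.0.0 and GRCh38 are named in the submitters' processing notes. An aligner is not named in any source used here. The deposited values are TPM for 58884 Ensembl genes, and 58472 of these matched a symbol in a name table.

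Reads were estimated as TPM times GENCODE 29 exon length over the step of 1 read, which left 90.7 to 92.2% of values up to 20 reads, and 65.9 to 68.2% of values of 20 to 200 reads, whole within 0.02 read. Those of CXCL8 (102.6 and 49.8 in TPC-1), LIF and TNFAIP3 did not come out whole, so their read numbers and intervals are approximate. These estimates gave exact 95% Clopper-Pearson intervals of ratios and a floor of 3 reads, which cover counting error only. Differences are on the log2(TPM + 1) scale, which understates those of low genes.

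Tests used limma 3.58.1 (R 4.3.3) with an intensity trend on genes averaging at least 1 TPM. They were two-sided and adjusted by Benjamini-Hochberg at 0.05 over all these genes. Temperature was the block between B-CPAP and TPC-1, and the line was the block between 40 °C and 37 °C. The fits were also run on simulated data with independent noise drawn from the fits themselves. Such noise meets the assumptions of the test, so it cannot show how the test fares without replicate cultures. No label says that cultures were separate beyond line and temperature, so p-values measure only the spread among these 4 libraries. The 10 genes, the lists by role and the tests were chosen with earlier results of these data known. All 10 genes are named, and up to 6 genes of each list by mean TPM. VCAM1, MYD88, genes at or near 0 and genes picked for their position lie outside that rule. Alternatives were pseudocounts of 0.1 and 5, another filter (none, or an average of at least 5 TPM), median centring, quantile normalization, adjustment for GC content, protein-coding genes only, fits without block or trend, and fits without 1 library. Promoters are from RefSeq (GRCh38.p14) and 3′ UTRs from GENCODE 29 transcripts.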

Additional observations from a re-analysis of the deposited data

Results flagged for a closer look

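For 4 of the tested genes the libraries at 40 °C and 37 °C differed in opposite directions in the 2 lines. Each line has 1 library a temperature, so the difference between lines was not tested, and opposite signs were found for 26.5% of all tested genes. Taken as the log2 difference between 40 °C and 37 °C in B-CPAP minus that in TPC-1, the value was -1.05 for CXCL8, 0.51 for TNFAIP3, -0.23 for LIF and -0.07 for NFKBIA. For CXCL8 the counting interval of the 40 °C to 37 °C ratio was 0.751 to 1.12 in B-CPAP and 1.52 to 3.09 in TPC-1, and these do not overlap. For TNFAIP3 the intervals were 1.12 to 1.57 in B-CPAP and 0.70 to 1.11 in TPC-1, and for NFKBIA both intervals included 1. For none of the 4 did both intervals exclude 1. With median centring the signs became alike for LIF (-0.34 in B-CPAP, -0.02 in TPC-1) and NFKBIA (-0.20 and -0.04). With adjustment for GC content they were also alike, at 0.11 and 0.18 for LIF and 0.13 and 0.12 for NFKBIA. CXCL8 and TNFAIP3 kept opposite signs in both settings.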

How the results depend on the processing

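Leaving out 1 library, which also drops the block, lowered the count of genes called between lines to 2911 to 5719, against 9349, and left 0 called between temperatures. No paired analysis was possible because the labels give no replicate numbers, beyond the blocks of line and of temperature that the fits hold. Without those blocks 7469 genes were called between lines and 0 between temperatures. The other settings gave 0 calls between temperatures except a pseudocount of 5 (2 genes), median centring (49), a mean TPM of at least 5 (867) and protein-coding genes only (1350); none of the 10 genes that entered these 4 fits was among them, which IL1A and IL1B did not, nor CCL20 at a mean TPM of at least 5. Genes 2-fold apart between temperatures numbered 582 in B-CPAP and 519 in TPC-1, and became 1246 and 987 with a pseudocount of 0.1, 82 and 89 with 5, 1143 and 1291 without a filter, 175 and 63 at a mean TPM of at least 5, and 137 and 18 among protein-coding genes. The cause of these shifts was not tested.

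Between lines the 8 tested genes kept their direction in each setting they entered; CCL20 did not enter at a mean TPM of at least 5. Without a filter the calls of IL6 (adjusted p 0.0546, range 0.00146 to 0.0546) and CXCL8 (0.0813, range 9e-05 to 0.0813) were lost, and that of CXCL8 also without the block (0.0529) and without the trend (0.0581). Median centring shifted the median log2 difference of all genes by 0.13 between lines and by -0.14 between temperatures. Between temperatures over both lines, TNFAIP3 turned to -0.037 with it and to -0.060 with quantile normalization, NFKBIA to -0.12 with it, and LIF to 0.15 with the adjustment for GC content, which gave LIF 0.11 within B-CPAP. Without 1 library these differences ran from -0.64 to 0.15 for IL6, -0.38 to 1.19 for CXCL8, -0.25 to 1.07 for CXCL1, -3.18 to 2.85 for CCL2, -1.04 to 0.81 for CCL20, -0.66 to 0.58 for LIF, -0.28 to 0.49 for TNFAIP3 and -0.34 to 0.38 for NFKBIA, since a line then counts once. Depth limits IL1A, IL1B, CCL20 and CCL2 in B-CPAP, at 3 to 31 estimated reads where any were found.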
